A study of Mus musculus with 11 samples.

Results

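Immediate early genes are the genes that a cell transcribes first after a stimulus, without new protein synthesis. A set of 10 was described here in mouse pancreatic islets, namely the transcription factor genes *Egr1*, *Fos*, *Fosb*, *Jun*, *Junb*, *Nr4a1* and *Atf3*, the nuclear protein gene *Ier2*, the phosphatase gene *Dusp1* and the antiproliferative gene *Btg2*. These are 10 of the 19329 gene IDs measured. *Egr1* was taken because it stands among the first 13 rows of a table of the study that is ordered by the comparison of the genotypes, so it was chosen by its wild-type and PDX1P33T levels, and the other 9 were added as its best known companions, with results of these data known. The difference between the genotypes in these genes is therefore given as a description, with no p-value for any of them, and only the number that passed the call made over all genes is counted.

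Bulk RNA sequencing was done on whole islets, with 6 wild-type (wt/wt) libraries and 5 libraries from mice homozygous for PDX1P33T, a single C-to-A exchange in *Pdx1* made with CRISPR-Cas9 in C57BL/6N embryos that replaces proline by threonine in the transactivation domain of this islet transcription factor. All mice were males of 14 weeks on chow and had no treatment. Islets of all libraries were kept in culture between isolation and RNA extraction. The study gives the time in culture as a range and not by library, so it may differ between libraries. Several mice may have been pooled for a library, so n counts libraries and SD is the spread between them. The values are FPKM, in which read numbers are divided by gene length and library size, so levels of different genes can be set side by side.

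Transcription of these genes needs no new protein because the factors that drive it are already in the cell. ERK kinases phosphorylate ELK factors that sit with SRF on serum response elements, and calcium and cyclic AMP act through CREB on the cyclic AMP response element (CRE), so that in beta cells glucose and membrane depolarization are known to induce *Egr1*, *Fos* and *Nr4a1*. The transcripts are short-lived, and several of their products, such as the MAP kinase phosphatase DUSP1, end the signal that induced them.

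Wild-type values could be used for 8 of the 10 genes. Most wild-type FPKM were deposited on the rows of other genes, whereas PDX1P33T values stand on their own rows. *Egr1* is 1 of the 13 genes whose wild-type values are on their own row as deposited. *Fos*, *Jun*, *Ier2*, *Nr4a1* and *Atf3* were put back by their read numbers, and *Junb* and *Btg2* by gene length and level. For *Fosb* and *Dusp1* the wild-type row was not found, and only PDX1P33T values are given. Reads counted ranged from 19311937 to 37094286 in wild-type and from 23731684 to 36865206 in PDX1P33T, and the beta cell hormone genes *Ins1* and *Ins2* were among the most abundant genes of both groups. A base exchange cannot be seen in gene totals, so the genotype labels could not be checked here.

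The 250 bases before the transcription start were available from RefSeq (GRCm38.p6) for 8 of the 10 genes, not for *Egr1* and *Ier2*. The CRE half-site, TGACG or its reverse complement CGTCA, was in 7 of these 8 windows, in all but that of *Jun*, and in 17.8% of the windows of all 32851 promoters. *Nr4a1* and *Dusp1* held at least 3 half-sites, as did 0.688% of all promoters. The full CRE, TGACGTCA, which counts as 2 overlapping half-sites, was in *Btg2* and *Dusp1* and in 1.55% of all promoters. The AP-1 site, TGANTCA, and the CArG box to which SRF binds were in none of the 8 windows and in 6.75% and 1.47% of all promoters. A match of letters is a description of the window and does not show a bound factor. Sites outside the 250 bases, or with letters that depart from these motifs, were not looked for. The windows shown here, with half-sites in capitals, are those of 3 genes and of *Btg2*. The 3 genes were highest in wild-type replicate 3 and lowest in replicate 1, and *Btg2* was the reverse. They lie at chr15:101266596-101266845 on the plus strand, chr12:85473640-85473889 on the plus strand, chr8:84978749-84978998 on the minus strand and chr1:134079156-134079405 on the minus strand, and each is written in the direction of transcription and ends at the base before the start.
*Nr4a1*: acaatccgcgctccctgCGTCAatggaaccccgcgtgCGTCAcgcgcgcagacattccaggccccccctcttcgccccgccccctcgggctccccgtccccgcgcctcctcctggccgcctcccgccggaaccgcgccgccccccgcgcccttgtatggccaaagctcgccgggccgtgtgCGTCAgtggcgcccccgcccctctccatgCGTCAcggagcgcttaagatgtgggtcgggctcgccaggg
*Fos*: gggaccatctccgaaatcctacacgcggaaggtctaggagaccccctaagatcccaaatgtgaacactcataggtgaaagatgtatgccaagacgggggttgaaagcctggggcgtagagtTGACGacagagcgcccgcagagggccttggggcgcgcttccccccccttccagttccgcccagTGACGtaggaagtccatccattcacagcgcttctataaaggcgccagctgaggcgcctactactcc
*Junb*: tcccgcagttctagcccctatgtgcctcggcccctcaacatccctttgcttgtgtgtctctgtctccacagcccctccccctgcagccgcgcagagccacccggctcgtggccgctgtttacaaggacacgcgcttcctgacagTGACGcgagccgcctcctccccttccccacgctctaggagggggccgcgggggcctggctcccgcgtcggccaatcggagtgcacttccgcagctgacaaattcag
*Btg2*: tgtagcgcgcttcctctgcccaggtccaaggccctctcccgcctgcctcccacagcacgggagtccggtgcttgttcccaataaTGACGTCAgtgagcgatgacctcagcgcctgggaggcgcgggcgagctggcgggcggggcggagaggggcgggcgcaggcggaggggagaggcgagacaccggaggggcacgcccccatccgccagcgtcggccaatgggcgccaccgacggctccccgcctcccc
In *Nr4a1* the half-sites begin 233, 213, 69 and 40 bases before the start, in *Fos* 129 and 66 bases, in *Junb* 106 bases and in *Btg2*, as 1 full CRE, 166 and 163 bases.

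*Egr1* encodes the zinc finger transcription factor EGR1. Its FPKM in wild-type replicates 1 to 6 were 3.08, 3.87, 7.63, 4.35, 4.36 and 4.21, and in PDX1P33T replicates 1 to 5 they were 2.10, 2.82, 1.56, 2.31 and 1.68. Every PDX1P33T library was below every wild-type library, and wild-type replicate 3 stood above the other 5, which lay within 3.08 to 4.36. The means were 4.58 ± 1.57 (SD, n = 6) and 2.09 ± 0.506 (SD, n = 5), and the log2 fold change on the log2(FPKM + 0.1) scale was -1.07 ± 0.21 (SE). Without wild-type replicate 3 it was -0.91 ± 0.16. This separation is the value for which *Egr1* was chosen. Between 226 and 723 reads fell on the gene in a library, so counting alone gives a coefficient of variation (CV) of 3.72% to 6.65%, against 34.2% between the wild-type and 24.2% between the PDX1P33T libraries.

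No member passed the call used for all genes, namely a p in limma, adjusted by Benjamini-Hochberg, that does not exceed 0.05 together with a fold change of 1.5 or more. That call took 6 of the 5724 genes with both genotypes, 0.105%, with 0.0524% in each direction, so that 0 of 8 members says little about them. Of the 8 members, 7 had a log2 fold change below 0, as did 51.8% of all genes, 58.5% of those put back by reads and 49.0% of those put back by length and level. *Egr1* was the only member without overlap between the groups, and in 2.11% of all genes and 6.45% of those put back by reads all PDX1P33T libraries were below all wild-type libraries, with the opposite in 1.96% of all genes. The part of the table used to put genes back by reads holds its top rows, ranked by the genotype comparison, so the genes put back by reads were not sampled independently of it. At an unadjusted p under 0.05 with a fold change of 1.5 or more, limma listed 151 genes as higher and 344 as lower in PDX1P33T, and 289 as higher and 242 as lower once FPKM were rescaled without the genes over 5000 FPKM. The median log2 fold change of the 8 members was -0.54, with a range of -1.07 to 0.11, beside -0.05 over all 5724 genes and -0.32 over the 1705 put back by reads.

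**Figure D1:**
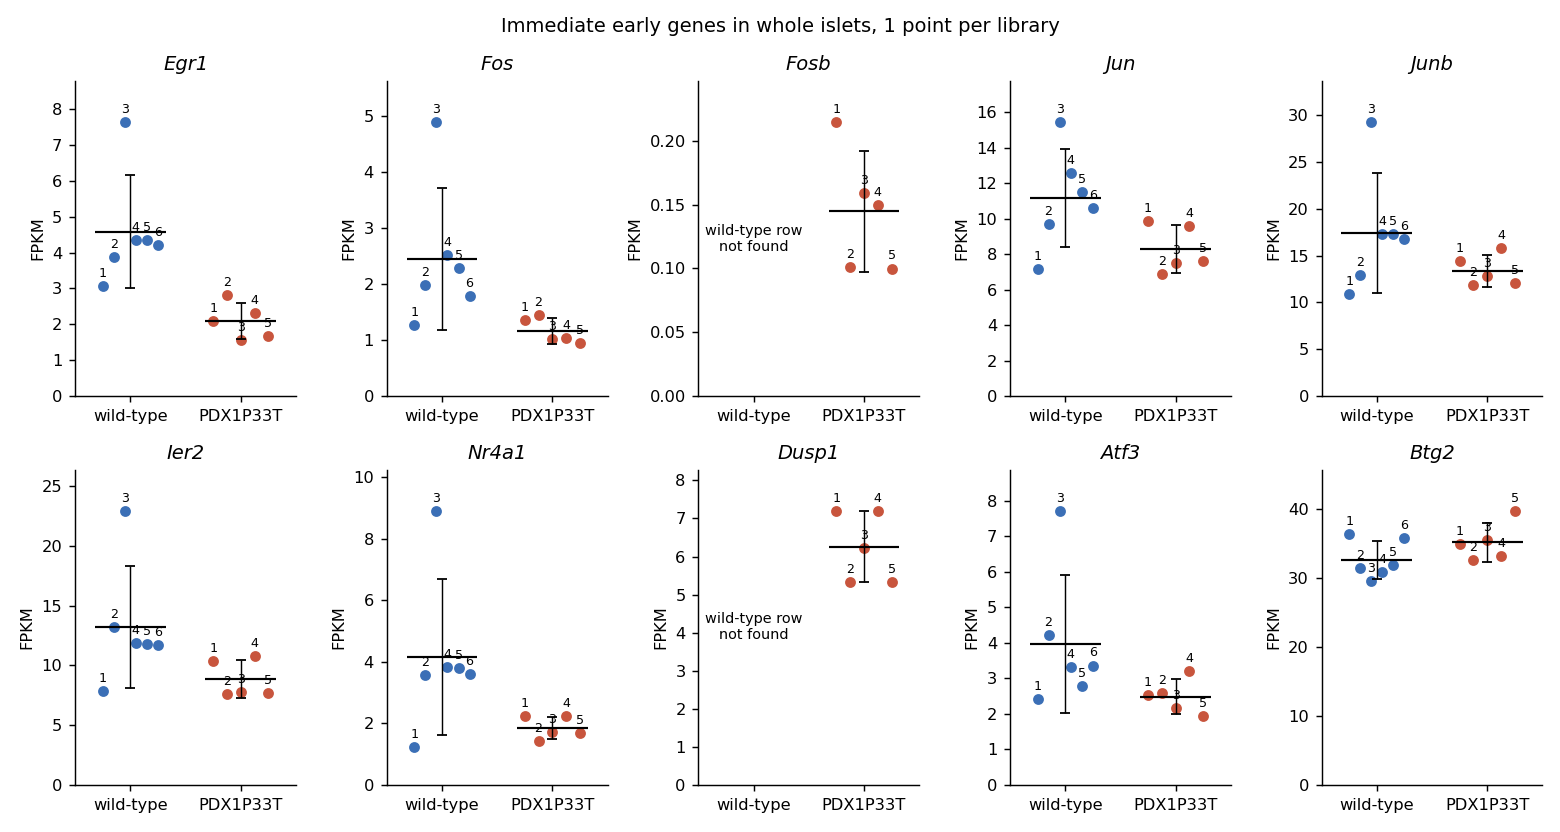
FPKM (y axis, from 0, a scale of its own in each panel) of the 10 immediate early genes in 6 wild-type (blue) and 5 PDX1P33T (red) libraries, each point a library with its replicate number, the line the mean and the bar the SD. Wild-type replicate 3 is the highest wild-type point in 7 of 8 panels, and only for *Egr1* are all PDX1P33T points below all wild-type points.

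FOS, FOSB, JUN and JUNB pair to form the AP-1 transcription factor. *Fos* was at 1.28, 1.98, 4.89, 2.51, 2.28 and 1.79 FPKM in wild-type replicates 1 to 6 and at 1.36, 1.45, 1.03, 1.04 and 0.946 FPKM in the PDX1P33T libraries. Wild-type replicate 1 was the only wild-type library within the PDX1P33T range, and the other 5 were above it. The log2 fold change was -0.91 ± 0.26 (SE), and -0.69 ± 0.18 without wild-type replicate 3. *Fos* rests on few reads, 60 to 222 in a library, and the 60 reads of PDX1P33T replicate 4 have an exact 95% Poisson interval of 45.8 to 77.2, which covers counting error only.

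Among *Fos*, *Jun* and *Junb*, *Jun* had the smallest wild-type CV, 24.9%. Its wild-type FPKM were 7.19, 9.69, 15.4, 12.6, 11.5 and 10.6, and its PDX1P33T FPKM were 9.88, 6.91, 7.52, 9.56 and 7.60. The groups overlapped through wild-type replicates 1 and 2, and the log2 fold change was -0.40 ± 0.17 (SE). *Junb* was measured at 10.9, 12.9, 29.2, 17.3, 17.3 and 16.8 FPKM in wild-type and at 14.4, 11.9, 12.8, 15.9 and 12.1 FPKM in PDX1P33T. Wild-type replicates 1 and 2 again lay within the PDX1P33T range or below it, and replicate 3 was far above all others. Its log2 fold change of -0.31 ± 0.20 (SE) was -0.15 ± 0.14 without wild-type replicate 3, a difference of about the size of its error. *Fosb*, known in PDX1P33T only, was at 0.215, 0.101, 0.159, 0.150 and 0.0999 FPKM, the lowest level of the 10 genes. These values rest on 15 to 36 reads, and the 15 reads of replicate 2 have an interval of 8.40 to 24.7, so the order of its libraries is hardly resolved.

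*Nr4a1* encodes the orphan nuclear receptor NUR77. It was at 1.24, 3.57, 8.90, 3.84, 3.78 and 3.59 FPKM in wild-type replicates 1 to 6 and at 2.23, 1.43, 1.71, 2.22 and 1.69 FPKM in PDX1P33T replicates 1 to 5. Replicate 1 was below every PDX1P33T library and the other 5 wild-type libraries were above every one of them. The highest wild-type value was 7.21 times the lowest, the widest spread of the 8 members, and 3.13% of all genes with a mean of at least 1 FPKM had a wild-type CV as high as its 60.8%. The log2 fold change was -0.93 ± 0.35 (SE), -0.67 ± 0.28 when wild-type replicate 3 was left out and -1.22 ± 0.24 when replicate 1 was.

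*Atf3* encodes a stress-induced factor of the ATF and CREB family. Its wild-type FPKM were 2.41, 4.22, 7.72, 3.32, 2.80 and 3.36, and its PDX1P33T FPKM were 2.54, 2.58, 2.17, 3.21 and 1.93. Wild-type replicates 1 and 5 lay within the PDX1P33T range, and the log2 fold change was -0.57 ± 0.25 (SE), and -0.36 ± 0.16 without wild-type replicate 3. *Ier2*, a nuclear protein induced with the others, was at 7.83, 13.2, 22.9, 11.9, 11.8 and 11.7 FPKM in wild-type and at 10.4, 7.58, 7.75, 10.8 and 7.71 FPKM in PDX1P33T. Wild-type replicate 1 alone lay within the PDX1P33T range. The log2 fold change of *Ier2* was -0.52 ± 0.22 (SE) and was -0.34 ± 0.15 without wild-type replicate 3.

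The remaining members encode feedback or effector proteins rather than members of a transcription factor family. *Dusp1* was at 7.20, 5.33, 6.23, 7.19 and 5.34 FPKM in the PDX1P33T libraries, with replicates 1 and 4 above the other 3. *Btg2* encodes a cofactor of mRNA deadenylation that slows the cell cycle. It was at 36.3, 31.4, 29.6, 30.8, 31.9 and 35.7 FPKM in wild-type and at 34.9, 32.6, 35.4, 33.3 and 39.7 FPKM in PDX1P33T, the highest level of the 10 genes. Wild-type replicates 1 and 6 lay within the PDX1P33T range, and replicates 2, 3, 4 and 5 were below it. Its log2 fold change was 0.11 ± 0.09 (SE). Its wild-type CV of 8.42% was below the median of 14.5% over all genes with a mean of at least 1 FPKM. In *Btg2* alone wild-type replicate 3 was the lowest library and replicate 1 the highest.

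**Figure D2:**
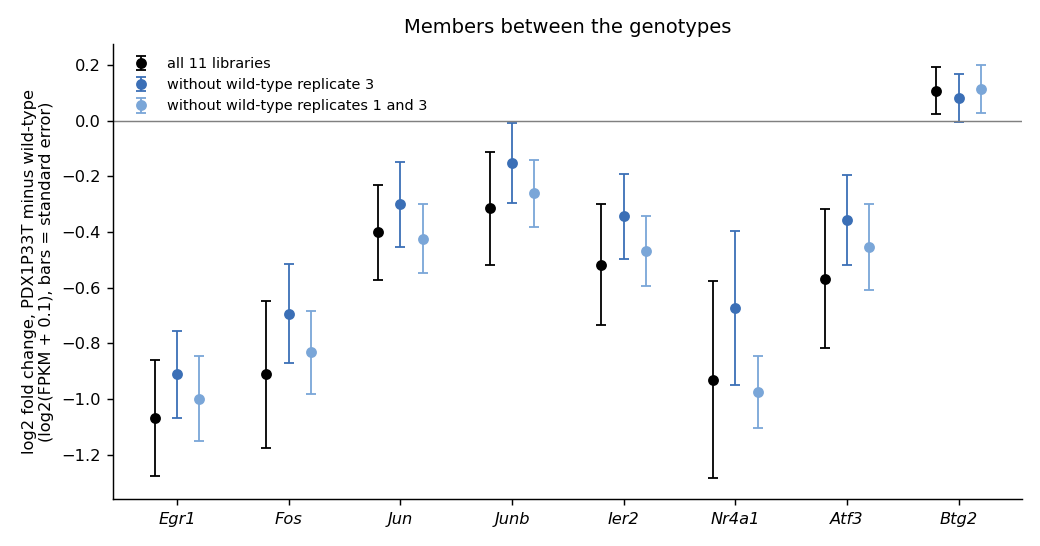
Log2 fold change of PDX1P33T against wild-type (y axis, on the log2(FPKM + 0.1) scale, bars the standard error of the limma fit) of the 8 members with both genotypes, with all 11 libraries (black), after leaving out wild-type replicate 3 (dark blue) and after leaving out both wild-type replicates 1 and 3 (light blue). *Egr1*, *Fos* and *Nr4a1* lie between -1.07 and -0.67 in all 3 fits, *Btg2* just above 0 and the other 4 between.

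The order of the levels was nearly alike in both genotypes. In PDX1P33T it ran, by the mean, from *Btg2* (35.2 FPKM) over *Junb* (13.4), *Ier2* (8.84), *Jun* (8.29), *Dusp1* (6.26), *Atf3* (2.49), *Egr1* (2.09), *Nr4a1* (1.86) and *Fos* (1.16) to *Fosb* (0.145). The libraries of *Btg2* and *Junb*, of *Junb* and *Ier2*, of *Dusp1* and *Atf3* and of *Fos* and *Fosb* did not overlap, whereas those of the other neighbours in this order did. In wild-type *Btg2* (32.6 FPKM), *Junb* (17.4), *Ier2* (13.2) and *Jun* (11.2) came in the same order, followed by *Egr1* (4.58), *Nr4a1* (4.15), *Atf3* (3.97) and *Fos* (2.45). There only *Btg2* and *Junb* were neighbours without overlap. *Atf3* thus stood above *Egr1* in PDX1P33T and below it in wild-type, in both cases with overlapping libraries.

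Within the wild-type group 7 of the 8 members shared the libraries at the ends of their order, whereas the order between the ends differed. The choice of the members did not use this order itself. A high replicate 3 raises the wild-type mean, however, so the order is not independent of the choice of *Egr1* or of the genes put back by reads. The shares over all genes given here were not split by the way of putting back. Replicate 3 was the highest wild-type library for 7 of 8 members and replicate 1 the lowest for the same 7, with *Btg2* the reverse. Among all 4307 genes with a mean of at least 1 FPKM, replicate 3 was the highest for 30.4% and replicate 1 the lowest for 28.1%, and both held together for 862 of the genes. These 2 libraries thus stood at the ends for many genes. In 6 of the 8 members, all but *Jun* (1.497 times, just under the limit) and *Btg2* (0.891 times), replicate 3 was at least 1.5 times the mean of the other 5 wild-type libraries, and this held for 13.7% of the 4307 genes. The ratio was 2.78 for *Nr4a1*, 2.49 for *Fos* and 2.40 for *Atf3*. Replicates 2, 4, 5 and 6 lay within 3.87 to 4.36 FPKM for *Egr1*, 3.57 to 3.84 for *Nr4a1*, 11.7 to 13.2 for *Ier2*, 9.69 to 12.6 for *Jun*, 12.9 to 17.3 for *Junb*, 1.79 to 2.51 for *Fos* and 2.80 to 4.22 for *Atf3*. The members are not independent of each other, since all 8 come from the same libraries.

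The summed FPKM of endothelial markers, and that of delta and PP cell markers, was also highest in wild-type replicate 3 and lowest in replicate 1. Of the delta and PP cell markers, 1 was itself lowest in replicate 6. The summed FPKM of 6 endothelial markers (*Pecam1*, *Cdh5*, *Kdr*, *Esam*, *Tie1* and *Flt1*) was 44.2, 69.7, 218, 81.9, 86.3 and 92.2 in wild-type replicates 1 to 6 and 74.4, 35.4, 52.4, 77.0 and 53.6 in PDX1P33T replicates 1 to 5. Replicate 3 was thus 2.92 times the mean of the other wild-type libraries. All 6 had a log2 fold change below 0, with a median of -0.63, which was -0.37 without wild-type replicate 3, and 0 called. The delta and PP cell markers *Sst* and *Ppy* summed to 10840, 14830, 25530, 17500, 17200 and 13720 FPKM in wild-type, so that replicate 3 was 1.72 times the mean of the others, and to 7985 to 16510 FPKM in PDX1P33T. Stromal and macrophage markers were highest in wild-type replicate 2 or 3, and all 3 macrophage markers were lowest in replicate 1. The 4 of 7 stromal markers with both genotypes summed to 5.03 to 36.2 FPKM in wild-type and 3.55 to 8.29 in PDX1P33T, with a median log2 fold change of -0.62. The 3 of 7 macrophage markers summed to 22.1 to 57.4 and 17.2 to 27.4, with a median of -0.65, again with 0 called in both lists. These sums leave out markers without wild-type values. Over all 7 markers of a list, the PDX1P33T sums were 8.78 to 16.2 FPKM for stromal, 132 to 155 for macrophage and 66.5 to 148 for endothelial markers. The 4 beta cell markers with both genotypes had a median of 0.15. No marker of these 4 lists was at 0 in PDX1P33T. Of the other marker lists, the median was -1.01 for Schwann cells (2 genes), -0.50 for delta and PP cells (2 genes), -0.08 for alpha cells (2 genes), -0.44 for acinar cells (1 gene), -0.31 for lymphocytes (1 gene) and 0.14 for ductal cells (1 gene), with 0 called. All 3 macrophage and both Schwann cell markers were put back by reads, against 1 of 6 endothelial, 0 of 4 stromal and 0 of 4 beta cell markers. Over all genes the median was -0.32 for those put back by reads and 0.05 for those put back by length and level. The medians of the marker lists therefore cannot be set side by side directly. The part of these cells in the values of the immediate early genes was not tested. In bulk RNA fewer cells of a type and less RNA per cell cannot be told apart.

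**Figure D3:**
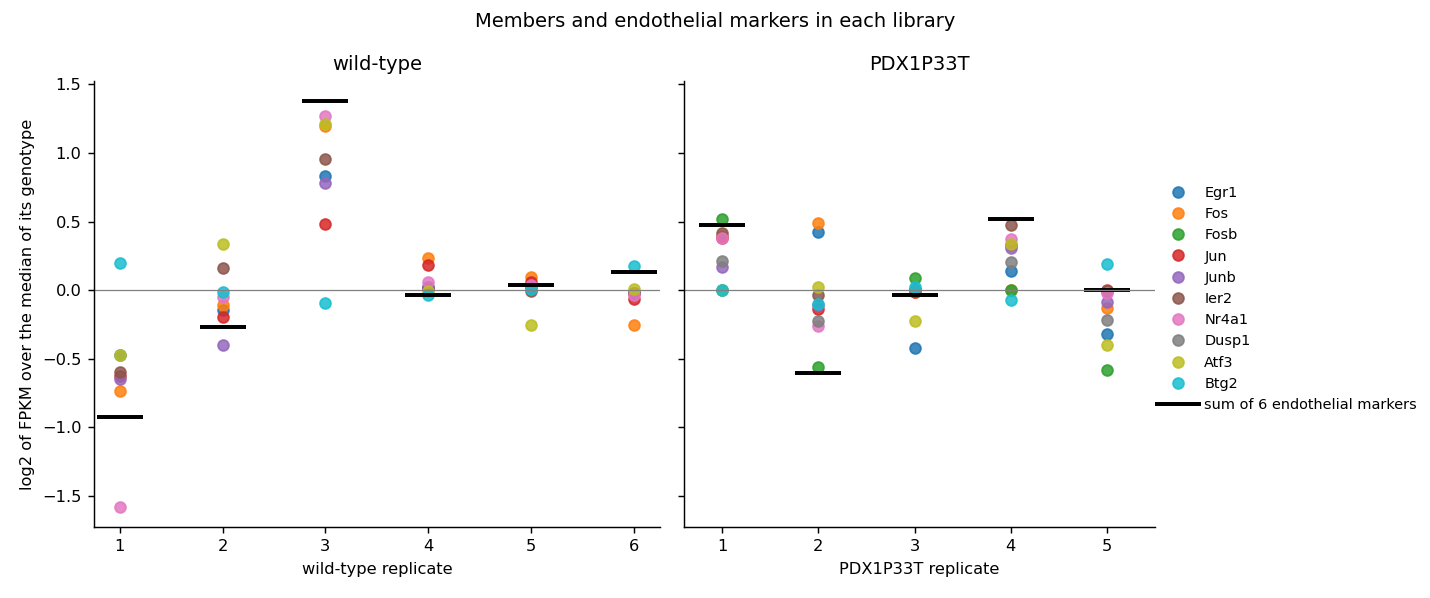
Log2 of the FPKM over the median of its own genotype (y axis) for each member (coloured points) and for the sum of 6 endothelial markers (black bars) in each wild-type (left) and PDX1P33T (right) replicate. In wild-type 7 members and the endothelial sum are lowest in replicate 1 and highest in replicate 3. In PDX1P33T *Egr1* and *Fos* are highest in replicate 2, where the endothelial sum is lowest.

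The PDX1P33T libraries had another order. Replicates 1 and 4 held the highest value of 7 of the 10 members, *Jun*, *Junb*, *Ier2*, *Nr4a1*, *Dusp1*, *Fosb* and *Atf3*, and were the highest for 18.7% and 17.4% of all 11179 genes with a mean of at least 1 FPKM. They were also the libraries with the highest endothelial sum. Replicate 2 held the lowest value of 6 members, against 36.9% of all genes, but this count depends on the scaling, since with median-of-ratios size factors it was 2, and 6 members were lowest in replicate 5. *Egr1* and *Fos* were highest in replicate 2, at 2.82 and 1.45 FPKM, as were 41.5% of all genes. Replicate 2 was the library with the lowest endothelial sum, and all 8 acinar markers were highest in it. The CV between the PDX1P33T libraries was 24.2% for *Egr1*, 19.4% for *Fos*, 19.0% for *Nr4a1* and 12.7% for *Junb*, beside a median of 13.9% over all genes. Of the 7 members with a log2 fold change below 0, all had a larger CV in wild-type than in PDX1P33T. Without wild-type replicate 3 the wild-type CV was 13.5% for *Egr1*, below its PDX1P33T CV, and 34.6% for *Nr4a1*.

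Likeness to *Egr1* was measured as Pearson's r of log2(FPKM + 0.1), centred within each genotype over the 11 libraries, and is given as a description of libraries that are shared by all genes. *Fos* was at 0.90, and 0.441% of the 4307 genes were as high. *Atf3* was at 0.83, *Junb* at 0.79, *Ier2* at 0.77, *Nr4a1* at 0.73 and *Jun* at 0.67, values that 2.16%, 3.95%, 4.50%, 6.71% and 9.77% of these genes reached, and *Btg2* was at -0.74. Without wild-type replicate 3 *Fos* was at 0.76 and *Atf3* at 0.58, and the other 4 positive values lay between 0.44 and 0.49, so the likeness was smaller without that library. The 10 genes outside the immediate early lists with the highest r were *Cfdp1* (0.95), *Sat1* (0.94), *Bax* (0.94), *Mrpl54* (0.93), *Serf2* (0.92), *Edf1* (0.92), *Maf1* (0.92), *Rps12-ps4* (0.92), *mt-Co2* (0.92) and *Polr2e* (0.91), all above the value of *Fos*.

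Within the 5 PDX1P33T libraries the members divided. *Fos* (0.74) and *Atf3* (0.70) had an r with *Egr1* of at least 0.7, *Ier2* (0.24), *Junb* (0.13), *Jun* (0.04), *Dusp1* (0.01) and *Nr4a1* (-0.10) were near 0, and *Btg2* was at -0.78. With 5 points such values are loose, and 146 of 11190 genes reached 0.95. The highest were a gene without a symbol and *Ubald2*, *Denr*, *AC150898.1*, *Pycard*, *Gm5905*, *Atp23*, *Gm28437*, *Sdhaf1* and *Dbnl*, all at 0.99 or above.

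The other transcription factors of the immediate early class were looked up from a list of 23. Of these 22 were in the table and 6 had both genotypes, 0 of them called. All 6 were put back by reads and had a log2 fold change below 0, as did 58.5% of all genes put back by reads. Their median was -0.64, beside -0.32 over all genes put back by reads. *Egr2*, a relative of *Egr1*, was at 0.164, 0.546, 1.22, 0.357, 0.291 and 0.265 FPKM in wild-type and at 0.164, 0.136, 0.146, 0.131 and 0.152 FPKM in PDX1P33T. Wild-type replicate 1 had the same value as the highest PDX1P33T library to 3 digits, and the other 5 wild-type libraries were above it. Its log2 fold change was -1.01 ± 0.33 (SE). It rests on few reads, 11 to 19 in a PDX1P33T library and 13 to 80 in a wild-type library. *Nr4a3*, a relative of *Nr4a1*, rests on 6 to 57 reads and had a log2 fold change of -0.69 ± 0.30. At such low levels the 0.1 FPKM added before the log shrinks the fold change, and the ratio of the PDX1P33T to the wild-type mean was 0.308 for *Egr2* and 0.344 for *Nr4a3*. *Klf2*, a Krüppel-like factor active in endothelial cells, had a log2 fold change of -0.68 ± 0.35, which was -0.45 without wild-type replicate 2, *Fosl2* of -0.57 ± 0.29, which was -0.34 without wild-type replicate 3, and *Jund* of -0.39 ± 0.15. *Jund* was the most abundant of them, at 53.3 to 88.4 FPKM in wild-type and 39.5 to 65.8 FPKM in PDX1P33T. In PDX1P33T alone *Egr3* was at 0.0478 to 0.203, *Fosl1* at 0.145 to 0.639 and *Nr4a2* at 1.66 to 2.06 FPKM. The 12 of 29 feedback and effector genes with both genotypes were all below 0, as were 51.8% of all genes, and 0 were called. Their median was -0.44, which was -0.25 without wild-type replicate 3. Of these 12, 7 were put back by reads, a set that was not sampled independently of the genotype comparison. The 3 with the greatest difference were the kinase gene *Plk2* (-0.73 ± 0.31, and -0.46 without wild-type replicate 3), the matricellular gene *Ccn1* (-0.70 ± 0.33) and the growth arrest gene *Gadd45b* (-0.68 ± 0.21). *Btg1*, the relative of *Btg2*, was at -0.05 ± 0.09.

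In these further lists wild-type replicate 3 was the highest library for 5 of 6 transcription factors and 11 of 12 feedback and effector genes, and replicate 1 the lowest for 5 and 10. Replicate 3 was at least 1.5 times the mean of the other wild-type libraries for 5 and 9 of them. Over all 4307 genes with a mean of at least 1 FPKM these 3 shares were 30.4%, 28.1% and 13.7%. All 6 transcription factors and 7 of the 12 other genes were put back by reads, so this order is not independent of the genotype comparison.

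Of 28 kinases and factors that act upstream 14 had both genotypes, 9 were below 0 and 0 were called, with a median log2 fold change of -0.15. Of these 3 were put back by reads, against 6 of the 8 members and 6 of the 6 other transcription factors, and the median over all genes was -0.32 for those put back by reads and 0.05 for those put back by length and level, so the medians of the lists cannot be set side by side directly. The greatest differences were in *Mef2c* (-0.43 ± 0.27), *Elk3*, an SRF partner (-0.35 ± 0.14), and the ribosomal S6 kinase gene *Rps6ka1* (-0.32 ± 0.19), with *Map2k1*, which activates ERK, at 0.32 ± 0.11 on the other side. Without wild-type replicate 3 these were -0.24, -0.24, -0.19 and 0.29. *Creb1* was at 0.11 ± 0.09 and *Mapk3*, the gene of ERK1, at -0.11 ± 0.08. The EGR corepressor genes *Nab1* and *Nab2* were measured in PDX1P33T only, at 4.44 to 4.94 and 0.931 to 2.02 FPKM. Heat shock genes with both genotypes stood on the other side of 0. *Hspa1a*, *Hspa1b*, *Hspb1*, *Dnajb1*, *Hsph1* and *Hsp90ab1* had PDX1P33T values only, so this class was covered in part. The 5 of 11 with both genotypes, 1 of them put back by reads, had log2 fold changes of 0.05 to 0.40, with *Hspe1*, the chaperonin subunit gene, at 0.40 ± 0.19 and *Dnaja1* at 0.22 ± 0.11 as the greatest. *Hspe1* was at 129 FPKM in PDX1P33T replicate 2 and at 57.4 to 62.6 FPKM in the other 4, and its log2 fold change was 0.18 ± 0.07 without that library. The 5 genes had a median of 0.16 and 0 called, and their summed FPKM was 465.6 in wild-type replicate 3, within the 433 to 524 of the wild-type group.

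**Figure D4:**
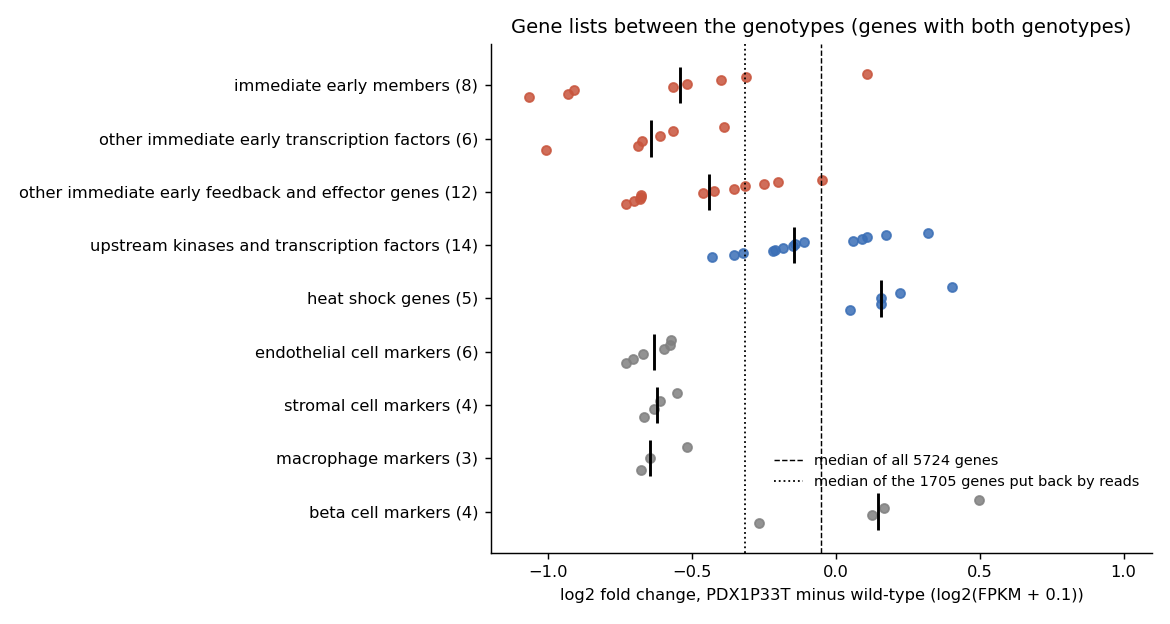
Log2 fold change of PDX1P33T against wild-type (x axis, on the log2(FPKM + 0.1) scale) of each gene with both genotypes (points) in 9 gene lists, with the number of genes in brackets and the median of each list as a black line (red, immediate early genes, blue, upstream and heat shock genes, grey, cell type markers, dashed line, median of all 5724 genes, dotted line, median of the 1705 put back by reads). The 3 immediate early lists and the endothelial, stromal and macrophage markers lie mostly left of both reference lines, and the heat shock genes lie right of 0.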

How the data were processed

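RNA was extracted from whole islets with an RNeasy kit, and since the sources name both stranded and unstranded library preparation, genes that overlap on opposite strands cannot be told apart. Per the submitters' processing notes, the authors filtered reads with fastp 0.23.1, aligned them to GRCm39 with HISAT2 2.0.5, counted them with featureCounts 1.5.0-p3 and named DESeq2 1.20.0. They kept genes detected in 80% or more of the replicates of either condition and deposited FPKM per gene and library. Their own fold changes and p-values were not used.

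The wild-type FPKM of most genes stand on rows of other genes. Gene lengths were recovered as the smallest at which all FPKM of a row are whole reads. The wild-type row of a gene was taken from the reads that the study's gene table lists (used as a key only, 1749 of its 25399 rows) or from the same length, a group mean within 4-fold, no further row of equal length within 8-fold and 100 or more reads per genotype. The 8-fold limit was chosen after the data were seen. Of the 4154 genes paired in the second way, 508 could be checked against the reads and 508 were right. In all 5763 genes (29.8% of the gene IDs) were put back, and 39 of them, listed at 0 in PDX1P33T, were left out.

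limma 3.58.1 in R 4.3.3, with the trend and robust options, was fitted to log2(FPKM + 0.1) of the 5724 genes in all 11 libraries without covariates, with adjustment for all 19329 gene IDs. In reads simulated for this comparison with 200 genes changed, limma found 33.5%, 96.0% and 99.5% at log2 changes of 1, 1.5 and 2 with a dispersion of 0.1, and 100% with 0.03. Genes were drawn independently there, with no deviation shared within a library. The wild-type CV of 60.8% of *Nr4a1* is above the spread set in these reads, so the shares found may be too high for such members. Python 3.11.15 with pandas 2.3.3, numpy 2.4.6 and matplotlib 3.10.9 gave the tables and plots. For a 1-kb gene a single read amounts to between 0.027 and 0.0518 FPKM by library, and read numbers cover counting error only. Symbols of all 10 members were found from the Ensembl gene IDs. Members, gene lists and markers were chosen with earlier results of these data known. Named were all members, their relatives in the EGR, FOS, JUN and NR4A families, the 3 genes of each further immediate early list with the greatest absolute log2 fold change and the 10 genes most like *Egr1* by each measure, and others named were chosen after their values were seen. Alternatives were other pseudocounts, a filter on low values, other scalings, limma without its options, a replicate block, leaving out libraries and narrower rules for putting genes back.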

Additional observations from a re-analysis of the deposited data

Results flagged for a closer look

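In 6 of the 18 combinations of a gene and a genotype, a single library stood apart from the others of its group by Dixon's test, which flags about 1 in 20 groups by chance, and the 18 are not independent because they come from the same 11 libraries. In all 6 cases it was wild-type replicate 3, and it was the highest value. How often the test flags this library over all genes was not measured, so the 6 cases cannot be called particular to these members. Among 4307 genes averaging 1 FPKM or more, wild-type replicate 3 was the highest wild-type library for 30.4% and the lowest for 35.1%. For 13.7% of them, wild-type replicate 3 reached 1.5 times the average of the others. *Egr1* was at 7.63 FPKM there against 3.08 to 4.36 in the other 5 wild-type libraries, and *Fos* at 4.89 against 1.28 to 2.51. *Junb* was at 29.2 FPKM against 10.9 to 17.3, and *Ier2* at 22.9 against 7.83 to 13.2. *Nr4a1* was at 8.90 FPKM against 1.24 to 3.84, and *Atf3* at 7.72 against 2.41 to 4.22. *Jun* (15.4 FPKM) was also highest in that library without passing the test. The summed level of 6 endothelial markers was 2.92 times the mean of the other wild-type libraries there, and its part in these values was not tested. No PDX1P33T library stood apart by this test for any of the 10 genes.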

How the results depend on the processing

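No member was called with all 11 libraries, with any library left out (0 to 0) or under the other settings listed for the fit. *Nr4a1* was the 1 member called without wild-type replicates 1 and 3, an alternative chosen after seeing that these libraries were at the ends, in which 8 of the 5724 genes were called, 3 higher and 5 lower. The median log2 fold change of the members was -0.54, ran from -0.67 to -0.35 with 1 library left out (-0.35 without wild-type replicate 3) and from -0.74 to -0.35 under the other alternatives, and no member changed sign. For *Junb* and *Btg2* no value was had with only genes put back by reads or with an exclusion limit of 16-fold.

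Over all genes the number of calls was 6, and 3 to 8 with 1 library left out. It was 3 with a pseudocount of 0.01 FPKM, 3 with a mean of at least 1 FPKM, 3 with only genes put back by reads and 2 when the log2 fold change had to be 1.5 or more in size. Replicate numbers did not pair the libraries, since the deviations of same-numbered libraries from their group means correlated at -0.59 to 0.12 by either numbering, titles or library names. With the replicate number as a block, 1 gene was called by the numbering of the titles and 3 by that of the library names, and 0 members in both. With median-of-ratios size factors, 2 members in place of 6 were lowest in PDX1P33T replicate 2 and 6 in place of 3 in replicate 5, while wild-type replicate 3 remained the highest and replicate 1 the lowest for 7. Genes with as few reads as *Fos* and *Fosb* are limited by depth, and nothing can be said of *Fosb* and *Dusp1* between the genotypes.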
